A study of Mus musculus with 8 samples.

Results

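MHC (major histocompatibility complex) class II molecules present peptides from outside the cell to CD4+ T cells, and 6 genes of this system were followed in mouse liver. H2-Aa encodes an alpha chain and H2-Ab1 and H2-Eb1 encode beta chains of the peptide receptor, Cd74 encodes the invariant chain that escorts new class II molecules, H2-DMa encodes a chain of the peptide editor DM, and Ciita encodes the class II transactivator. The genes were chosen by name, with earlier results of these data known. Of 20380 probe sets assigned to exactly 1 gene, 10 named one of these genes, and each gene was represented by the probe set with the highest mean over the 8 arrays, which gave 6 of 12393 genes. The chosen probe sets were 1435290_x_at for H2-Aa, 1450648_s_at for H2-Ab1, 1417025_at for H2-Eb1, 1425519_a_at for Cd74, 1422527_at for H2-DMa and 1421210_at for Ciita.

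Liver RNA from 4 genotypes on a C57BL strain background was hybridised to Affymetrix arrays, 2 for each genotype. Wild-type mice served as controls, SHP-/- mice lacked the small heterodimer partner (encoded by Nr0b2), a nuclear receptor that represses other nuclear receptors, OB-/- mice lacked leptin and are a model of obesity, and OB-/-/SHP-/- mice lacked both. All were kept on standard chow. Neither age nor sex is stated in the labels used here, nor whether both arrays of a genotype stand for different animals or pools. P-values therefore measure no more than the spread between samples, and part of it may be technical.

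Dendritic cells, B cells and macrophages carry class II molecules at rest, and in liver the resident macrophages (Kupffer cells) and sinusoidal endothelial cells carry them as well. Transcription of the chain genes, of Cd74 and of the DM genes depends on the class II transactivator, which does not bind DNA itself but docks onto proteins that sit on paired promoter elements, the X box (bound by the RFX complex and CREB) and the Y box (bound by NF-Y). Interferon gamma induces Ciita in cells that otherwise lack it, in part through Irf1.

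The paired elements are shown for the members whose windows held them, H2-Aa and H2-Eb1. The following stretches come from RefSeq promoter windows of the build GRCm38.p6 and run 5′ to 3′ on the strand of the gene, with the X box core GCAAC and the Y box core GATTGG in capitals. H2-Oa, which encodes a chain of a DM inhibitor, is set beside both chain genes.
H2-Aa: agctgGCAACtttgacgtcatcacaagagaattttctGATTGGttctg
H2-Eb1: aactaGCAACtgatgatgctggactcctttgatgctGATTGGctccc
H2-Oa: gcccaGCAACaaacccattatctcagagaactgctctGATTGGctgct
In H2-Aa the X core began 81 bases and the Y core 49 bases before the transcription start, with 27 bases between them, and the palindrome TGACGTCA (the cyclic AMP response element that CREB binds) began 74 bases before the start, between both cores. In H2-Eb1 the cores began 91 and 60 bases before the start with 26 bases between them, and in H2-Oa 76 and 44 bases before it with 27 between. The whole 300-base windows of the measured chain genes, from 250 bases before to 50 bases after the start, are chr17:34287774-34288073 on the minus strand for H2-Aa and chr17:34305617-34305916 on the plus strand for H2-Eb1.
H2-Aa: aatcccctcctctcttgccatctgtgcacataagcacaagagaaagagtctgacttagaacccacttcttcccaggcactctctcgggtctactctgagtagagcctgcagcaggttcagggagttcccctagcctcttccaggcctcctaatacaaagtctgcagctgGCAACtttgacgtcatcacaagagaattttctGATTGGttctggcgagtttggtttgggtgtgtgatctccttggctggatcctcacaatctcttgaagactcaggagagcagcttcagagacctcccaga
H2-Eb1: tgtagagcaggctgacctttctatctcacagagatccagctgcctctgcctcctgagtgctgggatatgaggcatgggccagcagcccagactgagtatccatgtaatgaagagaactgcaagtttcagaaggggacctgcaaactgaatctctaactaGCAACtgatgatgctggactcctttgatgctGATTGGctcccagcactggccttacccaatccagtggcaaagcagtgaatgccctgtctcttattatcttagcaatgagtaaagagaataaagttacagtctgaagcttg
An X core followed by a Y core on the same strand, 20 to 30 bases apart, was found in 67 of 32817 windows of that length (0.204%, from 60 genes), searching both strands. The letters GCAAC alone were in 35.2% of windows, GATTGG in 16.1% and TGACGTCA in 1.79%. The cores do not overlap each other or the palindrome in H2-Aa. This pattern and its spacing were chosen after the class II sequences had been read, so the share only describes how uncommon the pair is. Neither window of H2-DMa (chr17:34122582-34122881 and chr17:34125268-34125567, plus strand) held the pair, nor did the window of H2-DMb2 (chr17:34144999-34145298, plus strand), which held 1 GATTGG and no GCAAC. Only exact matches to both cores in the listed windows were counted, so a variant core or an unlisted transcription start would be missed. H2-Ab1, Ciita and Cd74 had no window.

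Array medians lay between 5.45 and 5.56 on the log2 scale. The hepatocyte product Alb stood between 13.87 and 14.07 on every array. Nr0b2, the gene targeted in SHP-/- mice, read 8.71 to 8.74 in wild-type, 7.78 to 8.31 in SHP-/-, 8.01 on both OB-/- arrays and 6.66 to 7.11 in OB-/-/SHP-/-, and whether its probe set lies in the deleted part is not known here. OB-/- replicate 1 and SHP-/- replicate 1 stood apart from their partners: Xist, which marks female cells, was 7.41 in the former and 4.31 to 4.70 on all other arrays, and Fos, an early response gene, was 11.95 in the latter and 6.98 in its partner. The Y-linked gene Eif2s3y read 6.99 on the OB-/- array with high Xist, between the lowest (6.57) and the highest value of the other arrays. Saa2, which encodes an acute phase protein, read 12.23 in SHP-/- replicate 2, against 8.98 in SHP-/- replicate 1 and 8.58 to 10.59 on the remaining arrays. The 3' minus 5' offset of Gapdh, which grows as RNA degrades, was 0.79 to 1.00 in wild-type, 0.19 to 0.35 in SHP-/-, -0.07 to -0.01 in OB-/- and 0.03 to 0.11 in OB-/-/SHP-/-. Its part in the differences between genotypes was not tested.

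The chain genes were lowest in wild-type liver and highest in liver without leptin and SHP. All values here are log2 expression levels of 1 probe set. H2-Aa, the alpha chain of the A molecule, read 8.15 and 8.22 in wild-type, 9.31 and 8.39 in SHP-/-, 8.56 and 8.69 in OB-/-, with 9.31 and 10.08 in the double knockout OB-/-/SHP-/-. SHP-/- replicate 1 stood level with OB-/-/SHP-/- replicate 1, while SHP-/- replicate 2 lay near the wild-type arrays, so the single knockouts overlapped each other. H2-Ab1, the beta chain of the same molecule, read 6.88 and 7.12 in wild-type, 7.90 and 7.28 in SHP-/-, 7.60 and 7.48 in OB-/-, with 8.12 and 9.17 in the double knockout. H2-Eb1, the beta chain of the E molecule, read 7.57 and 7.60, then 8.61 and 7.94, then 8.07 and 8.35, and 8.75 and 9.70 in the same order of genotypes. For both beta chains each OB-/-/SHP-/- array was above all 6 other arrays, each wild-type array was below all 6 others, and SHP-/- and OB-/- overlapped.

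**Figure D1:**
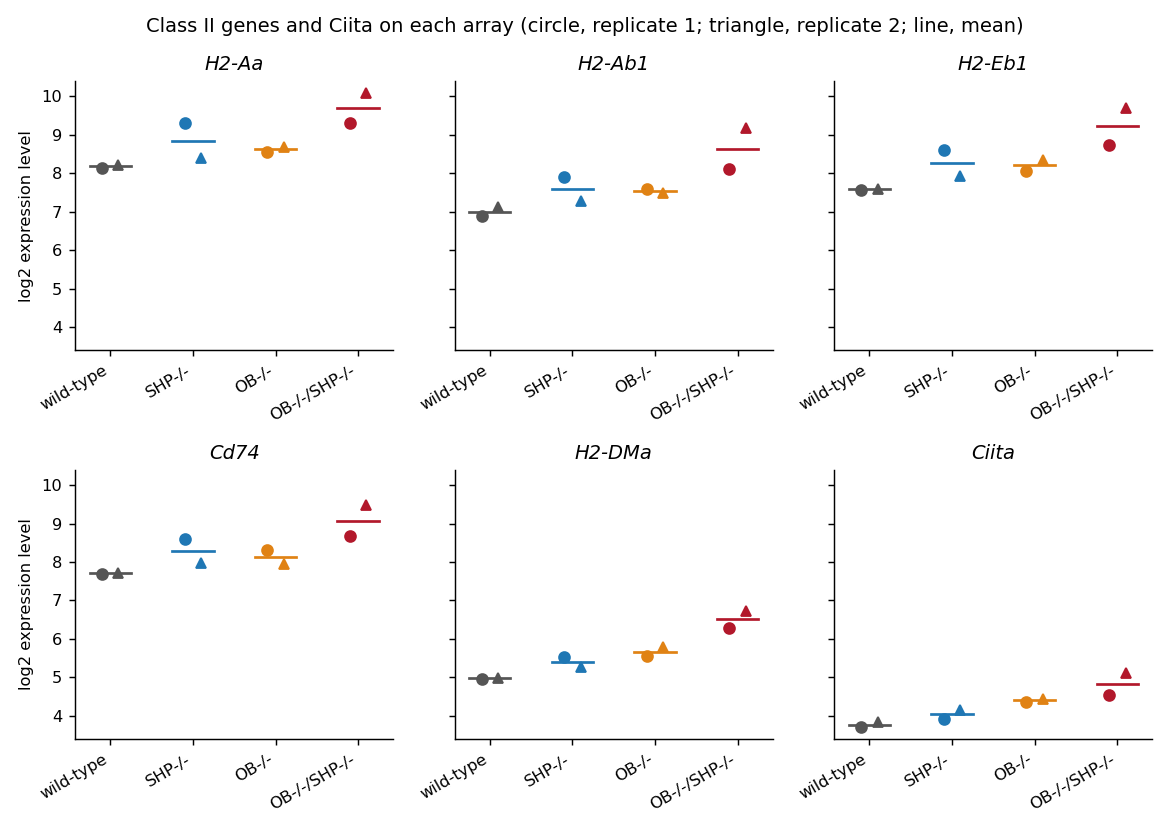
Log2 expression level (y axis) of each of the 6 genes on each array, by genotype (x axis), with replicate 1 as a circle, replicate 2 as a triangle and the genotype mean as a line. Wild-type replicate 1 is the lowest and OB-/-/SHP-/- replicate 2 the highest array in all 6 panels, and the SHP-/- replicates lie far apart for the chain genes and Cd74.

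The chaperone and the editor showed the same order of extremes. Cd74, whose product fills the peptide groove until it is cut away in the endosome, read 7.70 and 7.71 in wild-type, 8.60 and 7.98 in SHP-/-, 8.31 and 7.95 in OB-/-, with 8.67 and 9.48 in the double knockout. Its single knockouts overlapped as those of the chains did, and SHP-/- replicate 1 came close to the lower OB-/-/SHP-/- array. H2-DMa, part of the enzyme-like DM dimer that swaps the invariant chain remnant for peptide, read 4.96 and 4.99 in wild-type, 5.52 and 5.27 in SHP-/-, 5.56 and 5.79 in OB-/-, with 6.29 and 6.74 in the double knockout. The 4 genotypes did not overlap for H2-DMa, and they stood in the order wild-type, SHP-/-, OB-/- and OB-/-/SHP-/-, with the OB-/- mean 0.27 above the SHP-/- mean. The nearest SHP-/- and OB-/- arrays read 5.52 and 5.56.

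Ciita, the transactivator, had the same order on lower values. It read 3.71 and 3.84 in wild-type, 3.93 and 4.16 in SHP-/-, 4.37 and 4.43 in OB-/-, with 4.53 and 5.12 in the double knockout. No genotype overlapped another, and the OB-/- mean was 0.36 above the SHP-/- mean. Its mean over all arrays, 4.26, was below the level of 4.83 used as an alternative filter on dim genes, and its values are low on this scale. A difference in RNA from bulk liver cannot tell more cells of a type from more RNA per cell, for Ciita or for any gene below.

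The replicates of 2 genotypes were well apart. Among the chain genes and Cd74, replicate 2 minus replicate 1 had a median of -0.644 in SHP-/-, where replicate 2 was lower for 4 of 4 genes, and of 0.885 in OB-/-/SHP-/-, where it was higher for 4 of 4. In wild-type and OB-/- the medians were 0.0514 and 0.00404. The same gaps over 13 Kupffer cell and macrophage markers had medians of -0.634 in SHP-/- (1 of 13 higher in replicate 2) and 0.305 in OB-/-/SHP-/- (10 of 13 higher). Over the 8 arrays, which include the genotype differences, Pearson's r between pairs of the chain genes and Cd74 lay between 0.962 and 0.985, and Ciita correlated with the other 5 genes at 0.779 to 0.941. These coefficients describe 8 arrays that share genotypes and replicate gaps.

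The comparison of OB-/-/SHP-/- with wild-type gave the largest differences for each of the 6 genes, and all 6 rose. H2-Ab1 and H2-Eb1 each rose 3.12-fold, H2-DMa 2.91-fold, H2-Aa 2.85-fold, Cd74 2.59-fold and Ciita 2.07-fold. Differences were tested with limma, fitted to all arrays and all 12393 genes, with Benjamini-Hochberg adjustment and a call at an adjusted p below 0.05. For H2-DMa the log2 difference was 1.54 ± 0.17 (moderated SE, 2 arrays per genotype, adjusted p = 0.000181 by limma). The beta chains differed by 1.64 ± 0.29 for H2-Ab1 (adjusted p = 0.00375) and 1.64 ± 0.28 for H2-Eb1 (adjusted p = 0.0031), and the alpha chain H2-Aa by 1.51 ± 0.28 (adjusted p = 0.00504). Cd74 differed by 1.37 ± 0.26 (adjusted p = 0.00537) and Ciita by 1.05 ± 0.19 (adjusted p = 0.00357). Their median difference was 1.53 against 0.00 over all genes, and 7.6% of all genes rose in this comparison. Both OB-/-/SHP-/- arrays were above both wild-type arrays for 6 of 6 members and for 27.9% of all genes. Without wild-type replicate 1 the calls of H2-Aa and Cd74 were lost (adjusted p = 0.0521 and 0.0504), while those of the other 4 genes held with any single array left out.

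**Figure D2:**
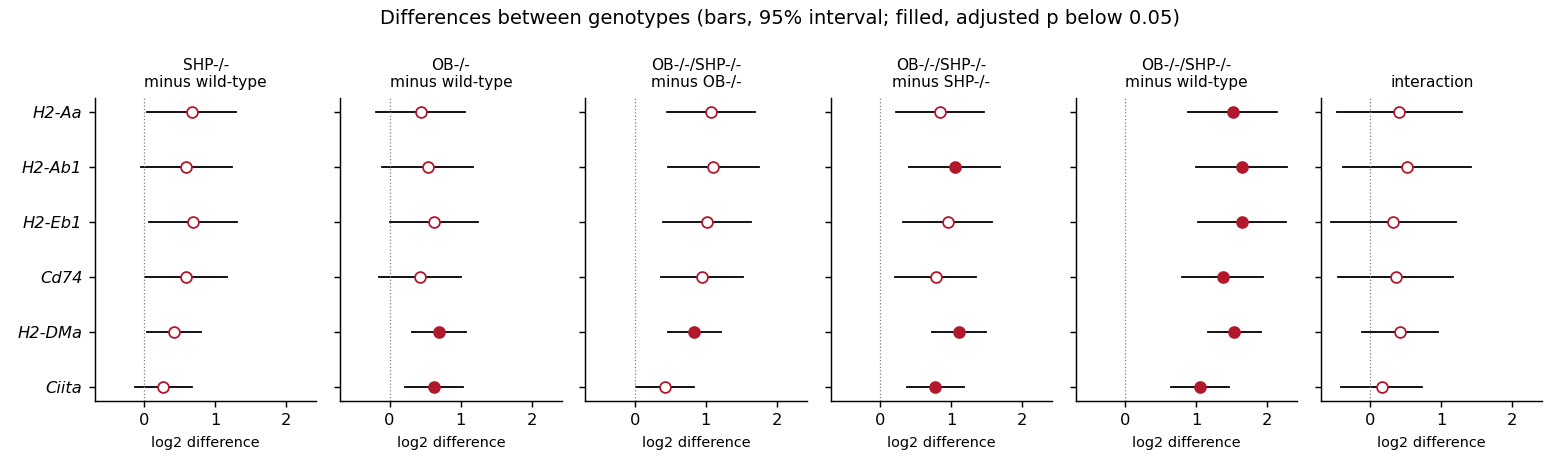
Log2 difference (x axis) of each gene (y axis) in 6 comparisons, with the 95% interval as a bar and a filled point where the adjusted p was below 0.05. All 6 points are filled for OB-/-/SHP-/- minus wild-type and none for SHP-/- minus wild-type or the interaction, and all points lie above 0.

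SHP-/- minus wild-type asked what loss of SHP does in mice with leptin. None of the 6 genes passed the limma test, and 4 had an unadjusted p below 0.05. The differences were 0.69 ± 0.28 for H2-Eb1 (adjusted p = 0.636), 0.67 ± 0.28 for H2-Aa (adjusted p = 0.662), 0.59 ± 0.29 for H2-Ab1 (adjusted p = 0.748), 0.59 ± 0.26 for Cd74 (adjusted p = 0.691), 0.42 ± 0.17 for H2-DMa (adjusted p = 0.635) and 0.27 ± 0.19 for Ciita (adjusted p = 0.869). In this comparison 0.323% of all genes were called in either direction. The median of the 6 differences was 0.59 against -0.03 over all genes, and both SHP-/- arrays were above both wild-type arrays for 6 of 6 members and for 14.7% of all genes. The size rested on the SHP-/- array used: the difference of H2-Aa was 0.20 without replicate 1 and 1.13 without replicate 2, and those of H2-Ab1, H2-Eb1 and Cd74 were 0.28 to 0.36 and 0.90 to 1.02. With either array left out, none of the 6 passed.

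OB-/-/SHP-/- minus OB-/- asked the same in mice without leptin. H2-DMa rose by 0.84 ± 0.17 (1.79-fold, adjusted p = 0.0293) and was the only one of the 6 to pass. The chain genes had larger differences with wider errors, 1.10 ± 0.29 for H2-Ab1 (adjusted p = 0.0999), 1.07 ± 0.28 for H2-Aa (adjusted p = 0.100) and 1.02 ± 0.28 for H2-Eb1 (adjusted p = 0.120). Cd74 differed by 0.95 ± 0.26 (adjusted p = 0.116) and Ciita by 0.43 ± 0.19 (adjusted p = 0.397). Of all genes, 1.26% rose. All 6 members had an unadjusted p below 0.05, their median was 0.98 against 0.01 over all genes, and both OB-/-/SHP-/- arrays were above both OB-/- arrays for 6 of 6 members and for 21% of all genes. The count of 1 was 0 without OB-/- replicate 1, OB-/- replicate 2, OB-/-/SHP-/- replicate 2 or either wild-type array (adjusted p of H2-DMa at most 0.236). It was 5 without OB-/-/SHP-/- replicate 1, 3 without either SHP-/- array, and 0 without OB-/- replicate 1 and SHP-/- replicate 1 together.

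In mice with SHP, leptin loss was read from OB-/- minus wild-type. H2-DMa rose by 0.70 ± 0.17 (1.62-fold, adjusted p = 0.0181) and Ciita by 0.62 ± 0.19 (1.54-fold, adjusted p = 0.0395). The other differences were 0.63 ± 0.28 for H2-Eb1 (adjusted p = 0.166), 0.54 ± 0.29 for H2-Ab1 (adjusted p = 0.256), 0.44 ± 0.28 for H2-Aa (adjusted p = 0.353) and 0.43 ± 0.26 for Cd74 (adjusted p = 0.321). So 2 of 6 rose, where 7.58% of all genes rose. The median difference of the 6 was 0.58 against -0.01 over all genes, and both OB-/- arrays were above both wild-type arrays for 6 of 6 members and for 27.5% of all genes. The call of H2-DMa was lost without either wild-type array or OB-/- replicate 2 (adjusted p at most 0.139). For Ciita the call was lost without any one of the 4 arrays compared (at most 0.203).

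In mice without SHP it was read from OB-/-/SHP-/- minus SHP-/-. H2-DMa rose by 1.12 ± 0.17 (adjusted p = 0.00244) and passed as well in each fit with 1 array fewer. Ciita rose by 0.78 ± 0.19 (adjusted p = 0.0221) and H2-Ab1 by 1.05 ± 0.29 (adjusted p = 0.0426). H2-Eb1 differed by 0.95 ± 0.28 (adjusted p = 0.0549), H2-Aa by 0.85 ± 0.28 (adjusted p = 0.0848) and Cd74 by 0.78 ± 0.26 (adjusted p = 0.0823). Thus 3 of 6 rose, where 4.95% of all genes rose, with a median of 0.90 against 0.03 over all genes, and both OB-/-/SHP-/- arrays were above both SHP-/- arrays for 6 of 6 members and for 29.3% of all genes. Ciita no longer passed without SHP-/- replicate 1 or OB-/-/SHP-/- replicate 2 (adjusted p at most 0.150), and H2-Ab1 failed in 12 of 19 alternatives (at most 0.277). The count was 6 without OB-/-/SHP-/- replicate 1, 5 without SHP-/- replicate 1 and 1 without OB-/-/SHP-/- replicate 2.

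The interaction, the difference between the SHP effect without leptin and the SHP effect with leptin, was above 0 for 6 of 6 genes and passed for none. None had an unadjusted p below 0.05, and 0.549% of all genes were called in either direction. The estimates were 0.51 for H2-Ab1 (95% interval -0.39 to 1.42), 0.42 for H2-DMa (-0.12 to 0.95), 0.41 for H2-Aa (-0.48 to 1.29), 0.36 for Cd74 (-0.45 to 1.17), 0.33 for H2-Eb1 (-0.55 to 1.20) and 0.16 for Ciita (-0.42 to 0.73). The intervals allow a larger and a somewhat smaller SHP effect in mice without leptin, and no difference was detected for these 6 genes. Without OB-/-/SHP-/- replicate 2 the estimates of H2-Ab1, H2-Eb1, Cd74 and Ciita turned below 0.

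Other probe sets of 3 members were read as a check. The second H2-Aa probe set, 1452431_s_at, differed by 1.28 in OB-/-/SHP-/- minus wild-type and passed, and the H2-Ab1 probe sets 1425477_x_at and 1451721_a_at differed by 1.32 and 1.89 and passed, each adjusted over all probe sets. The probe sets of both chains thus gave the same direction. The second Ciita probe set, 1421211_a_at, stood between 3.55 and 3.92 on every array and differed by 0.30 (adjusted p = 0.182), so the rise of Ciita was seen by 1 of its 2 probe sets. Both probe sets of H2-Aa, and 2 of the 3 of H2-Ab1, carry the suffixes x_at or s_at, which mark probes shared between similar sequences.

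**Figure D3:**
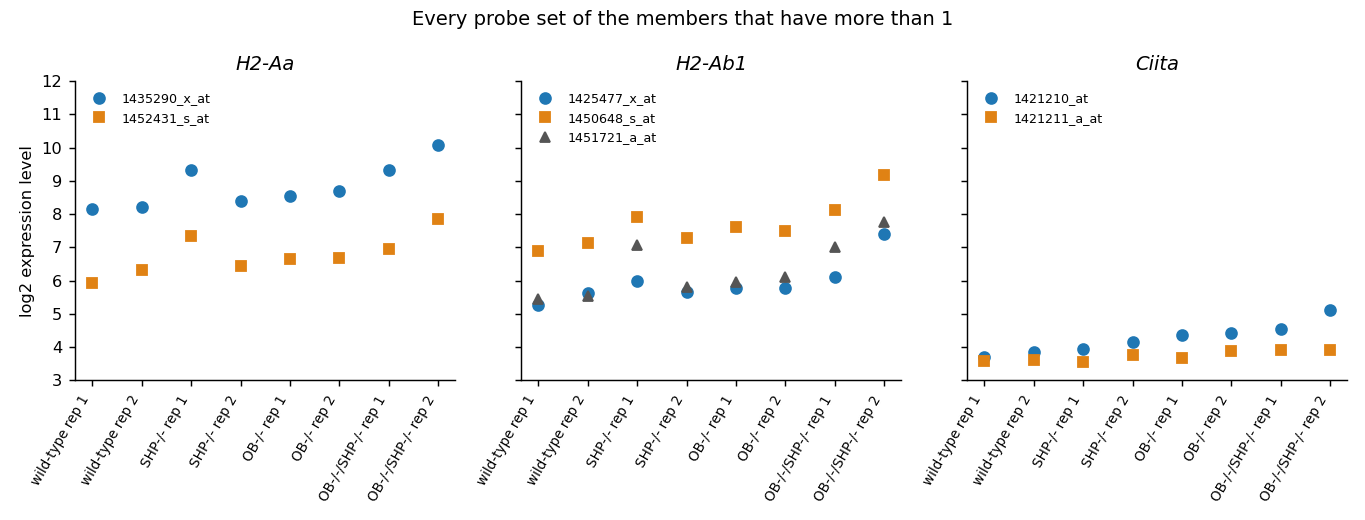
Log2 level (y axis) of every probe set of H2-Aa, H2-Ab1 and Ciita on each array (x axis). The probe sets of H2-Aa and H2-Ab1 share the peaks at SHP-/- replicate 1 and OB-/-/SHP-/- replicate 2, and the second Ciita probe set stays between 3.55 and 3.92.

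Other genes of class II assembly and peptide loading were taken as a list of 14, of which 9 were measured. Against wild-type, 4 rose and 0 fell in OB-/-/SHP-/-: the invariant chain protease Ctss by 1.79 ± 0.29 (adjusted p = 0.0021), the lysosomal thiol reductase Ifi30 by 1.02 ± 0.19, cathepsin D (Ctsd) by 0.70 ± 0.14 and the endopeptidase Lgmn by 0.65 ± 0.16. The same count of 4 rose in OB-/- minus wild-type, with Ctss at 1.23 ± 0.29 and Ctsd at 0.85 ± 0.14. Of all genes, 7.6% rose in OB-/-/SHP-/- minus wild-type and 7.58% in OB-/- minus wild-type. Between OB-/-/SHP-/- and OB-/-, 0 passed by limma (0 at an unadjusted p below 0.05), and the list's median was 0.06. Ctss read 7.07 and 7.04 in wild-type, 8.33 and 7.36 in SHP-/-, 8.37 and 8.19 in OB-/-, with 8.48 and 9.20 in the double knockout, so its SHP-/- replicates were apart as those of the chain genes were. Of the class II genes in this list, H2-DMb2, a beta chain of DM, lay between 4.19 and 4.47, H2-Oa between 3.63 and 4.23, and H2-Ea, a non-functional gene in the H2b haplotype of C57BL mice, between 6.68 and 7.68. None of these 3 passed in any comparison, though some groups did not overlap. H2-Ea read lower in OB-/-/SHP-/- than in wild-type by -0.59 ± 0.20 (adjusted p = 0.0713 by limma), and H2-Oa read higher in OB-/-/SHP-/- than in SHP-/- by 0.50 ± 0.15 (adjusted p = 0.0527). Without wild-type replicate 2 each of these counts of 4 was 1, and for OB-/- minus wild-type it was also 1 without OB-/- replicate 1 and 2 without wild-type replicate 1.

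Genes that control class II transcription formed a list of 20, of which 18 were measured. When OB-/-/SHP-/- was set against OB-/-, the interferon regulatory factors Irf1 and Irf8 rose and 0 fell, where 1.26% of all genes rose. The rise was 1.74 ± 0.20 for Irf1 (adjusted p = 0.000726 by limma) and 1.23 ± 0.13 for Irf8 (adjusted p = 0.000499). Irf1, which drives the interferon-responsive promoter of Ciita, read 7.94 and 8.16 in wild-type, 8.01 and 7.84 in SHP-/-, 7.12 and 7.69 in OB-/-, with 9.34 and 8.95 in the double knockout. Irf8, a factor of myeloid cells, lay between 5.67 and 5.76 on the 6 other arrays and at 6.80 and 7.03 in OB-/-/SHP-/-. No single knockout array of Irf1 exceeded the higher wild-type array. For each of the 6 members, every single knockout array was above both wild-type arrays. The part of Irf1 in the class II values was not tested. The interactions passed by limma, at 1.87 ± 0.28 for Irf1 (adjusted p = 0.0118) and 1.17 ± 0.19 for Irf8 (adjusted p = 0.0197). Neither passed in fits that lacked wild-type replicate 1, wild-type replicate 2 or OB-/- replicate 1, the last also together with SHP-/- replicate 1. Irf8 also failed without OB-/- replicate 2 or OB-/-/SHP-/- replicate 2.

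None of the RFX, NF-Y and CREB genes, the DNA-binding partners of the transactivator, rose in any of the 6 comparisons by limma. In OB-/- minus wild-type the RFX subunits Rfx5 and Rfxap fell by 0.72 ± 0.15 and 0.49 ± 0.15, the coactivator Crebbp fell by 0.67 ± 0.18, and Ifngr2, a chain of the interferon gamma receptor, rose by 0.75 ± 0.15. In that comparison 1 of 18 rose and 4 fell, where 9.36% of all genes fell. These 5 calls numbered 1 without wild-type replicate 1, without OB-/- replicate 1 and without OB-/- replicate 1 and SHP-/- replicate 1 together, and 3 without wild-type replicate 2 or OB-/- replicate 2. Rfx5 read 6.36 and 6.65 in OB-/- and 6.97 to 7.28 on the 6 other arrays. Between OB-/-/SHP-/- and SHP-/-, 2 rose and 2 fell, where 5.62% of all genes fell, and the NF-Y subunit Nfya fell by 0.99 ± 0.15. Nfya was highest in SHP-/-, at 5.23 and 5.42. It read 4.82 and 4.53 in wild-type, 4.71 and 4.52 in OB-/-, with 4.41 and 4.26 in OB-/-/SHP-/-. Between OB-/-/SHP-/- and wild-type, 5 rose and 2 fell, where 8.25% of all genes fell, and the genes that rose included Spi1, which encodes a myeloid transcription factor, at 0.84 ± 0.19. These 7 calls numbered 2 without wild-type replicate 1 and 3 without OB-/-/SHP-/- replicate 2. The transcript of interferon gamma itself, Ifng, lay between 2.94 and 3.27 on every array.

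Class I presentation and costimulation were set beside these genes. In OB-/-/SHP-/- minus OB-/-, 1.26% of all genes rose. Of 13 measured class I genes, 7 rose and 0 fell in OB-/-/SHP-/- minus OB-/- (4 without OB-/- replicate 2), with the smallest adjusted p for the immunoproteasome subunit Psmb9 (2.47 ± 0.14), which read 10.15 and 10.23 in OB-/-/SHP-/- and 7.51 to 7.90 elsewhere. Of 8 costimulation genes 1 rose and 0 fell: Cd274, the inhibitory ligand PD-L1, by 2.75 ± 0.23 (adjusted p = 3.79e-05), with 8.19 and 7.38 in OB-/-/SHP-/- and 4.59 to 5.20 elsewhere. The costimulator Cd86 lay between 3.78 and 4.32 and passed in no comparison. Cd83, which stabilises class II at the cell surface, rose by 0.76 ± 0.18 in OB-/-/SHP-/- minus wild-type and by 0.78 ± 0.18 in OB-/- minus wild-type, and both calls were lost without wild-type replicate 1 (adjusted p = 0.135 and 0.124 by limma). Leaving out OB-/-/SHP-/- replicate 2 ended the first call too, and leaving out 1 OB-/- array, whichever it was, or OB-/- replicate 1 together with SHP-/- replicate 1 ended the second, at lower adjusted p-values than these.

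**Figure D4:**
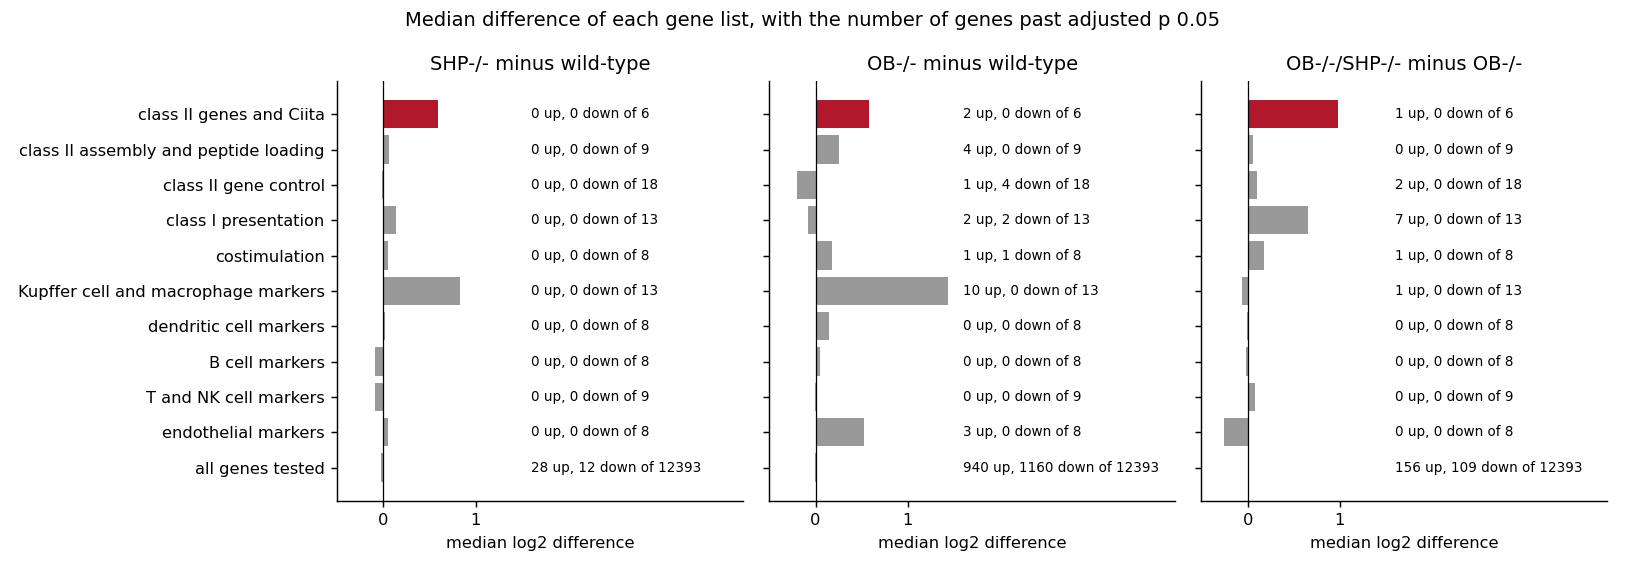
Median log2 difference (x axis) of the class II genes with Ciita, of other gene lists and of all genes (y axis) in 3 comparisons, with the numbers of genes past the test written beside each bar. Kupffer cell and macrophage markers have medians of 0.83 and 1.44 against wild-type and -0.06 in OB-/-/SHP-/- minus OB-/-, where the class II genes have 0.98.

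Markers of the cell types that carry class II were read in the same arrays. Of all genes, 7.58% rose in OB-/- minus wild-type and 7.6% in OB-/-/SHP-/- minus wild-type. Of 15 Kupffer cell and macrophage markers 13 were measured, and their summed level on the log2 scale was 10.37 to 10.44 in wild-type, 10.86 to 11.64 in SHP-/-, 11.95 to 11.99 in OB-/- and 11.78 to 12.22 in OB-/-/SHP-/-. In OB-/- minus wild-type 10 of 13 rose (median 1.44), with the smallest adjusted p for the complement receptor Vsig4 (1.88 ± 0.20) and the complement component C1qa (1.84 ± 0.23), and in OB-/-/SHP-/- minus wild-type 11 of 13 rose (median 1.19), or 6 without wild-type replicate 2 and 7 without OB-/-/SHP-/- replicate 2. For SHP-/- minus wild-type the median was 0.83, with 10 markers at an unadjusted p below 0.05 and 0 past the limma test, or 7 without SHP-/- replicate 2. From OB-/- to OB-/-/SHP-/- the median was -0.06, and Marco, a scavenger receptor, was the only marker to pass (1.60 ± 0.35), a call lost in 11 of 19 alternatives. The other 12 ranged there from -0.44 ± 0.23 for the haemoglobin scavenger receptor Cd163 to 0.42 ± 0.30 for the complement component C1qb. Mpeg1, a macrophage gene that is not in the list and was chosen after its values were seen, did pass in that comparison (1.70 ± 0.18, adjusted p = 0.00477 by limma). Mpeg1 read 7.72 and 7.88 in wild-type, 9.34 and 9.73 in SHP-/-, 8.94 and 8.78 in OB-/-, with 10.36 and 10.75 in OB-/-/SHP-/-. Both of its SHP-/- arrays were thus above both wild-type arrays as well. The part of macrophage number in the class II values was not tested.

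Markers of other cell types were read as well, against the same shares of all genes that rose (7.58% in OB-/- minus wild-type and 7.6% in OB-/-/SHP-/- minus wild-type). Of dendritic cell markers 8 of 10 were measured, and their summed level was 8.00 to 8.08 in wild-type, 8.03 to 8.14 in SHP-/-, 8.17 in both OB-/- arrays and 8.14 to 8.19 in OB-/-/SHP-/-. Among them Itgax (CD11c) lay between 3.75 and 4.17 and Xcr1 between 2.95 and 3.63. Of B cell markers 8 of 9 were measured, with a summed level of 7.28 to 7.54 on all arrays, and Ms4a1 (CD20) lay between 3.91 and 4.36. That list and its summed level did not hold Ighm, the gene of the immunoglobulin M heavy chain. SHP-/- replicates 1 and 2 read 6.01 and 6.53 for Ighm, below every other array (7.34 to 7.58). Of T and NK cell markers 9 of 12 were measured, with a summed level of 7.96 to 8.32. By limma 0 genes of these 3 lists passed in any of the 6 comparisons, with 0 to 1 of each list at an unadjusted p below 0.05. Of 8 endothelial markers 3 rose in OB-/- minus wild-type, Lyve1 by 3.31 ± 0.28, Pecam1 by 1.40 ± 0.19 and Cdh5 by 0.93 ± 0.19, and 0 passed in OB-/-/SHP-/- minus OB-/- (1 at an unadjusted p below 0.05, median -0.26). The same 3 rose in OB-/-/SHP-/- minus wild-type, Lyve1 by 2.70 ± 0.28, Pecam1 by 1.19 ± 0.19 and Cdh5 by 0.62 ± 0.19, the last a call lost in 11 of 19 alternatives. In that comparison 5 of 8 markers were above 0 with a median of 0.20, against 6 of 8 and 0.53 in OB-/- minus wild-type. Stab2 read 7.95 and 7.24 in wild-type and 7.72 and 7.80 in OB-/-/SHP-/-. Clec4g read 8.39 and 7.95 in wild-type and 8.33 and 7.92 in OB-/-/SHP-/-. In OB-/-/SHP-/- minus SHP-/-, Lyve1 rose by 1.93 ± 0.28 and Pecam1 by 1.15 ± 0.19. Pecam1 lies below the filter on dim genes and was not tested where that filter was used. The summed endothelial level was 9.51 to 9.96 in wild-type and 9.59 to 9.86 in SHP-/-. It was 10.19 to 10.23 in OB-/- and 9.85 to 10.04 in OB-/-/SHP-/-. The part of endothelial cells in the class II values was not tested.

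Genes whose pattern was most like that of the chain genes were ranked by Pearson's r over the 8 arrays. The reference was the mean of the centred levels of H2-Aa, H2-Ab1 and H2-Eb1. Ranked were 6893 genes with a mean at or above the median of all values, without the members and without predicted genes and clone names. The first 8 were Pgap2 (0.964), which matures lipid anchors, the drug-metabolising cytochrome Cyp3a11 (0.95), the actin-binding Dbnl (0.941), Fxyd5 (0.937), Shisa5 (0.935), the mitochondrial topoisomerase Top1mt (0.933), the laminin chain Lama5 (0.927) and the interferon factor Irf7 (0.926). Most of them varied far less than the class II genes, with 0.41 between the lowest and highest array for Cyp3a11 and 0.54 for Pgap2, against 1.93 for H2-Aa. Irf7 spanned 1.77, from 6.83 in wild-type replicate 1 to 8.60 in OB-/-/SHP-/- replicate 2. The coefficients rest on 8 arrays and are given as a description.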

How the data were processed

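Liver RNA of 8 mouse samples was measured on Affymetrix arrays, 2 arrays for each of 4 genotypes, with genotype and replicate number taken from the sample titles. The deposited values, 1 for each array and probe set, are taken as log2 expression. Per the submitters' processing notes, the authors used R 2.15.0. How background was corrected and probes summarised, and which log base was used, is not given in the sources used here. The values span 2.20 to 14.19, which was read as base 2. With near-equal array medians, the values were read as normalised and used unchanged. Arrays carry no count, so their number limits the precision.

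Of 22690 probe sets, 64 controls were left out, and of the rest 20380 named 1 gene, 691 several and 1555 none in the array annotation. The brightest probe set represented each of 12393 genes. Under R 4.3.3, limma (version 3.58.1; data handled with the package data.table, version 1.17.8) fitted 1 mean per genotype to all arrays (4 residual and 7.16 prior degrees of freedom). All tests were two-sided, with Benjamini-Hochberg adjustment over all genes for each comparison and calls below 0.05. Standard errors are moderated, and 95% intervals use the same degrees of freedom. The script was tested on simulated data.

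All 6 members are named in every comparison. From 12 lists of 134 genes, of which 114 were measured, up to 4 members past the test per comparison are named by smallest adjusted p, otherwise up to 3 with values alone, besides defining markers at low level. The summed level of a list is the log2 of its summed linear values. The members and lists were chosen with earlier results of these data known. The alternatives were quantile normalisation, equal medians, eBayes with trend or robust, a filter on dim genes at 4.83 (the 40th percentile over probe sets), the mean of probe sets, every probe set by itself, no x_at or s_at probe sets, the compared arrays alone, the replicate number as a block and each array left out in turn. Leaving out OB-/- replicate 1 and SHP-/- replicate 1 together was chosen after seeing the data. With an array left out, the lone sample of its genotype is assumed to vary like the others. Promoter windows are from RefSeq (GRCm38.p6). Lists of hepatocyte, bile duct and pancreatic acinar markers were read as well: between OB-/-/SHP-/- and OB-/-, 1 of 8 rose, 0 of 4 changed (0 at an unadjusted p below 0.05 by limma) and 5 of 8 fell, and the acinar summed level was 9.99 to 10.38 in OB-/- and 8.19 to 8.60 elsewhere. In OB-/-/SHP-/- minus wild-type 3 of 8 acinar markers rose and 1 fell, where 7.6% of all genes rose and 8.25% fell. Clps differed by 1.18 ± 0.22, Prss2 by 0.93 ± 0.23, Zg16 by 0.79 ± 0.16 and Cela1 by -1.06 ± 0.15.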

Additional observations from a re-analysis of the deposited data

Results flagged for a closer look

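For 7 listed genes, none of them a class II gene, the SHP effect differed between mice without and with leptin by the interaction test. The estimates were 2.25 for Psmb9, 2.20 for Tap1, 1.73 for Psmb8 and 1.68 for Psmb10, all of class I presentation, 1.87 for Irf1, 1.17 for Irf8 and 2.58 for Cd274, against a range of 0.16 to 0.51 for the 6 class II genes, which did not pass. The calls of Psmb9, Psmb10 and Cd274 held with each single array left out. Psmb8 failed without wild-type replicate 2, and without OB-/- replicate 1 and SHP-/- replicate 1 together. Tap1 failed with the mean of its probe sets (adjusted p = 0.147 by limma).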

How the results depend on the processing

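Of the counts of class II genes that rose, OB-/-/SHP-/- minus OB-/- (1) became 2 with eBayes trend and with only the compared arrays, and 0 without OB-/- replicate 1 and SHP-/- replicate 1 together. OB-/- minus wild-type (2) became 1 with dim genes left out, since Ciita is below that filter, 1 with the mean of probe sets, 5 with only the compared arrays and 1 without both doubted arrays. OB-/-/SHP-/- minus SHP-/- (3) became 1 with only the compared arrays. With single arrays left out the counts ranged from 0 to 5, 0 to 2 and 1 to 6 in these comparisons, from 4 to 6 in OB-/-/SHP-/- minus wild-type and stayed at 0 in the other comparisons. Except for the dim filter, which removes Ciita, the cause was not tested. With single arrays left out the interaction ranged from -0.054 to 0.87 for H2-Aa, from -0.011 to 1.04 for H2-Ab1, from -0.15 to 0.80 for H2-Eb1, from -0.049 to 0.76 for Cd74 and from -0.14 to 0.45 for Ciita, below 0 without SHP-/- replicate 2 for H2-Aa and H2-Eb1 and without OB-/-/SHP-/- replicate 2 for all of these but H2-Aa. With the replicate block the counts were 0, 1, 2, 3, 6 and 0, equal to those without it. Deviations of same-numbered arrays correlated at -0.107 to 0.196, so the numbers were not taken to pair the samples. No x_at or s_at filter could be applied to H2-Aa, which then has no probe set. Of the 6 genes, Ciita alone had a mean signal below the dim filter.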
